A study of Mus musculus with 7 samples.

Results

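MHC class I genes were described in single germinal vesicle (GV) oocytes with and without SETD1B, a methyltransferase of lysine 4 on histone H3. The list held 9 genes: the heavy chain genes H2-T23, H2-T24, H2-T22, H2-D1 and H2-K1, the light chain gene B2m, and the genes Tap1, Tap2 and Tapbp of peptide transport and loading. The list was selected on the log2 RPM values of this same comparison, so the differences between genotypes in these genes are descriptions and carry no test. Of 33437 oocyte transcripts, 8 were rows of these genes, and 6 of the 8 rows passed the filter on low values (at least 1 RPM in at least 3 libraries), which 18179 transcripts of the whole table passed. RPM are the reads of a transcript per 1000000 mapped reads of its library.

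Per the labels, all oocytes came from 21-day-old C57BL6 females (C57BL/6OlaHsd in the methods of the study) that were floxed/floxed for Setd1b. In the Setd1b cKO (4 libraries) the females were Gdf9-Cre positive, so that the floxed segment is removed in growing oocytes by a recombinase driven from an oocyte promoter. In the Setd1b WT (3 libraries) the labels give the females as Gdf9-Cre negative. The methods of the study also count heterozygous Gdf9-Cre carriers as WT females, so Cre in a WT oocyte was not tested. Each library was made from 1 oocyte, whose mother the labels do not identify, so errors measure the spread between libraries. Libraries held 8582493 to 12972366 mapped reads, and 0 reads allow a true level of up to 3 reads, or 0.231 to 0.350 RPM, by counting error alone. Setd1b itself was at 2.68 to 16.7 RPM in the cKO and at 8.61 to 17.7 RPM in the WT. This range includes sequence outside the floxed segment and does not check the genotype labels.

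Class I molecules carry peptides from inside the cell to its surface. A heavy chain pairs with beta-2 microglobulin, the product of B2m, in the endoplasmic reticulum. Peptides reach it through the TAP transporter, made by Tap1 and Tap2, and tapasin, made by Tapbp, holds the empty heavy chain beside the transporter. The classical heavy chains, of H2-K1 and H2-D1 in this strain, present peptides to cytotoxic T cells. The T region heavy chains are less variable: the product of H2-T23, Qa-1, is read by receptors of natural killer cells, and that of H2-T22 by some gamma delta T cells.

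Class I promoters are known for a CCAAT box (the Y box), an X2 element, a kappaB site and an interferon response element. The stretches around these elements are shown because they set H2-T23, a member with a high level, beside the classical genes with low levels. RefSeq promoters (GRCm38.p6) were searched for 6 of the members: H2-T23, H2-T22, H2-D1, H2-K1, Tap1 and Tapbp. The letters searched, on both strands and in the 250 bases before the outermost start site, were CCAAT for the Y box, TGACG for the X2 core, GGGATTCCC for the kappaB site and TTTCACTT for the interferon response core. None of these motifs contains another. In the lines that follow, each of 30 bases and 5′ to 3′ along the gene, capitals mark a motif, and the first 4 lines show the CCAAT box nearest the start site. The nearest box may be a different element from gene to gene: it lies 49 bases from the start site in H2-D1. In H2-K1 it lies 12 bases from the start site and reads ATTGG.
H2-T23, chr17:36032736-36032765, minus strand: gttttctaaaagCCAATcagcgacgcagag
H2-T22, chr17:36042788-36042817, minus strand: gacgacaagaagCCAATcgctgggctaaga
H2-D1, chr17:35263029-35263058, plus strand: agattccaggagCCAATcagcgtcgccgcg
H2-K1, chr17:34000348-34000377, minus strand: cagctcttacccccATTGGgtggcgcgatc
H2-D1, chr17:35262923-35262952, plus strand: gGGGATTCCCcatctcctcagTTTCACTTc
H2-K1, chr17:34000429-34000458, minus strand: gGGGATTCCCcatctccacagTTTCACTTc

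All 6 promoters held the CCAAT letters, which 33.8% of the 32851 RefSeq promoters hold in the same window. The 2 classical genes, H2-D1 and H2-K1, held all 4 motifs, and their stretches around the kappaB site shared 29 of 30 bases. The kappaB letters occur in 0.301% of all promoters and the interferon response core in 1.36%. H2-T22 held the interferon response core and TGACG beside CCAAT, while Tap1 held CCAAT and TGACG, and TGACG occurs in 17.8% of all promoters. In the H2-T23 and Tapbp windows only CCAAT was found, and no match says only that these letters are not in the window.

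Of the members measured, H2-T23 was the most abundant. The H2-T23 row (chromosome 17, 36029773 to 36032855, minus strand, GRCm38) reached 229, 144, 175 and 292 RPM over cKO replicates 1 to 4. The WT values were 65.0, 47.3 and 75.3 RPM for replicates 1 to 3. Every cKO library lay above every WT library, with replicate 2 the lowest of the cKO. The cKO mean was 210.1 ± 64.8 RPM (SD, n = 4), the WT mean was 62.5 ± 14.2 RPM (SD, n = 3), and their ratio was 3.36. Differences were taken in log2(RPM + 1), where low genes appear less changed than they are, and that of H2-T23 was 1.71 (SE 0.28). H2-T23 made up 59.9% to 79.8% of the summed RPM of the 6 members past the filter, depending on the library.

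H2-T24, a T region class I gene, showed a difference of like size at a lower level. Its row (chromosome 17, 36005358 to 36020560, minus strand) was at 56.3, 38.0, 38.9 and 49.4 RPM in cKO replicates 1 to 4. In the WT it was at 8.91, 7.79 and 25.6 RPM. The genotypes did not overlap, but WT replicate 3 stood well above the other 2 WT libraries. The means were 45.7 ± 8.77 RPM (SD, n = 4) and 14.1 ± 9.997 RPM (SD, n = 3), and the log2 difference was 1.799 (SE 0.37). Without WT replicate 3 it was 2.30, and without WT replicate 2 it was 1.504. The H2-T24 row shares 1849 bases at its 3′ end with a row on the plus strand, which the table assigns to A930015D03Rik. Both rows held equal reads in 5 of 7 libraries and differed by at most 4 reads in the others. In no library did the H2-T24 row hold more reads than the plus strand row. Nearly all the reads were thus counted in both rows, and few came from the part of H2-T24 outside the shared bases. Which strand they came from cannot be told apart, since the library kit does not mark strand.

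**Figure D1:**
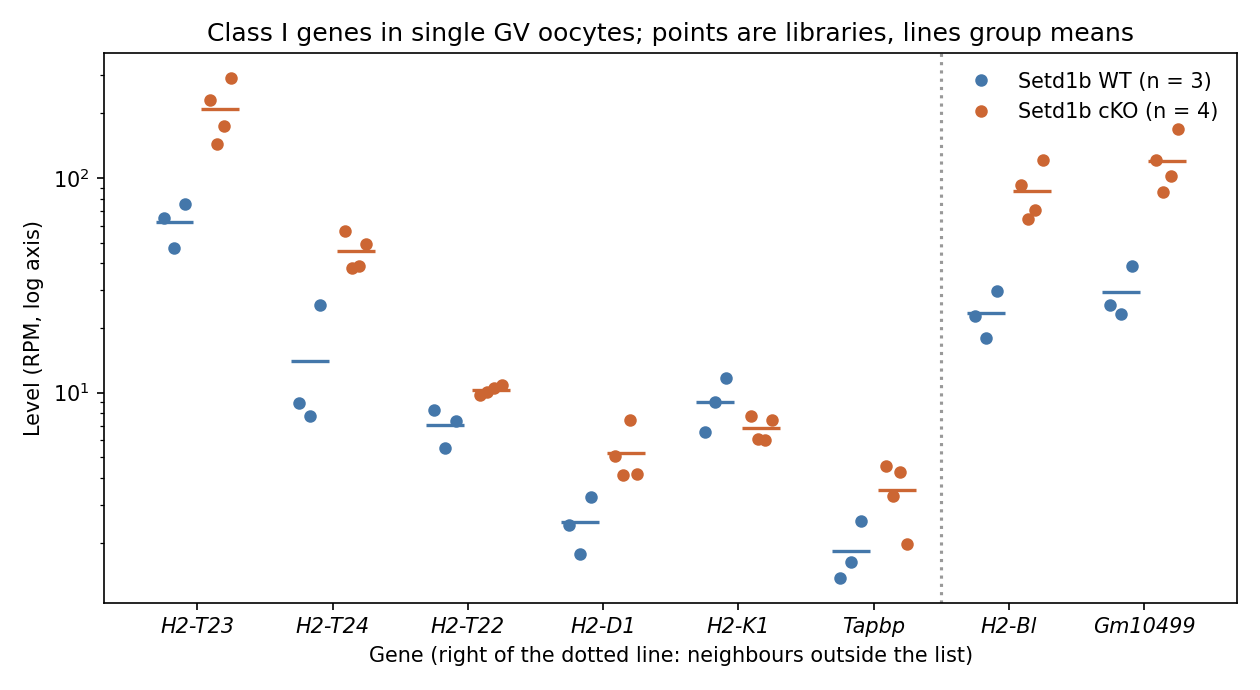
Level of the 6 members past the filter, and of the neighbouring genes H2-Bl and Gm10499, in RPM on a log axis; each point is 1 library, blue for Setd1b WT (n = 3) and orange for Setd1b cKO (n = 4), and lines are group means. H2-T23 and H2-T24 are separated by genotype by the widest gaps among the members, and H2-K1 lies the other way with overlapping groups.

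H2-T22 (chromosome 17, 36037128 to 36042747, minus strand) was low and even. It was at 9.80, 10.05, 10.54 and 10.8 RPM in cKO replicates 1 to 4 and at 8.26, 5.55 and 7.39 RPM in WT replicates 1 to 3. The groups did not overlap, although the gap between them was narrow. The log2 difference was 0.50 (SE 0.24). Of the 75-base windows of its annotated transcripts, the read length of these libraries, 40.0% also occur in transcripts of other genes, among them H2-T10 and the overlapping A930015D03Rik. Windows shared with A930015D03Rik, whose row covers that of H2-T22, may be the same stretch of the genome, where reads map once. The 40.0% thus does not measure the reads lost. Reads that fit several copies in the genome were removed by the mapping filter, so the level of H2-T22 is uncertain. For the H2-T23, H2-T24, H2-D1 and H2-K1 transcripts the share of such windows was 5.91%, 0.459%, 5.56% and 3.10%. For Tapbp it was 18.6%, mostly with Gm19412.

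The classical heavy chain genes went in opposite directions at low levels. H2-D1 was at 5.05, 4.12, 7.49 and 4.19 RPM in the cKO and at 2.43, 1.77 and 3.27 RPM in the WT. The groups did not overlap, with means of 5.21 ± 1.57 RPM (SD, n = 4) and 2.49 ± 0.753 RPM (SD, n = 3) and a log2 difference of 0.82 (SE 0.30). The H2-D1 row runs from 35262730 to 35346762 on the plus strand of chromosome 17 and also spans H2-Q1 and H2-Q2, whose reads it may hold. H2-K1 (chromosome 17, 33996017 to 34000333, minus strand) was at 7.82, 6.09, 6.01 and 7.46 RPM in the cKO and at 6.56, 9.02 and 11.7 RPM in the WT. The groups overlapped, and the log2 difference of -0.34 (SE 0.27) was little larger than its error.

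Among the genes of peptide transport and loading, Tapbp was measurable. It was at 4.55, 3.29, 4.27 and 1.98 RPM in the cKO and at 1.38, 1.62 and 2.53 RPM in the WT. The groups overlapped through cKO replicate 4, and the log2 difference was 0.65 (SE 0.32). The Tapbp row (chromosome 17, 33915907 to 33929288, plus strand) also contains Zbtb22 and may hold its reads. The Tap1 row held 3 reads in cKO replicate 2 and 0 reads in the other 6 libraries. The Tap2 row held 13 reads in cKO replicate 1, 7 reads in WT replicate 2 and 0 reads in the other 5 libraries. A difference in Tap1 or Tap2 was not detectable at this depth. B2m has no row of its own here, and the row over it belongs to Patl2 on the opposite strand, so B2m is not analysed.

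Of the 6 members past the filter, all had at least 1 RPM in every library. Both H2-T23 and H2-T24 met the threshold used for all genes (limma, more than 2-fold, with a Benjamini-Hochberg adjusted p under 0.05), which 3.76% of the transcripts tested met in the direction of higher levels and 1.95% in that of lower levels. In 4 members, H2-T23, H2-T24, H2-T22 and H2-D1, every cKO library lay above every WT library. Across all transcripts tested this held for 13.2%, and for 7.14% in the opposite direction. Because this contrast chose the members, nothing is read from these shares. The median log2 difference over the 6 members was 0.74, against 0.12 over all transcripts tested. Neither met it with no filter on low values. H2-T23 also lost the threshold without WT replicate 2, at a log2 difference of 1.52, and H2-T24 without WT replicate 1, WT replicate 2 or cKO replicate 1, at 1.59, 1.504 and 1.69.

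**Figure D2:**
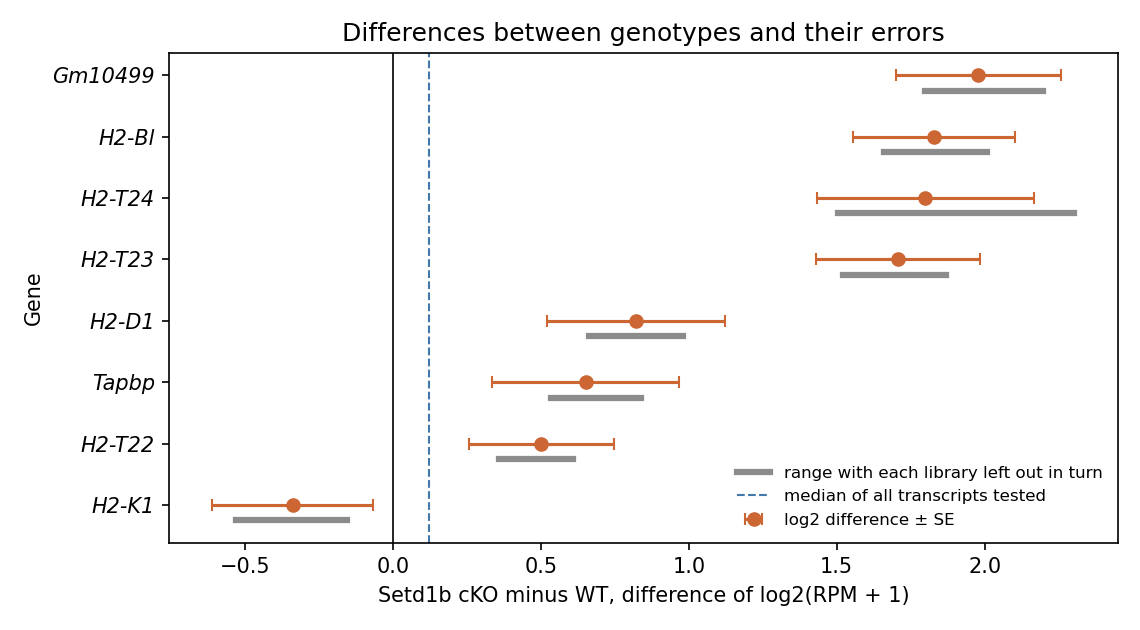
Difference between Setd1b cKO and WT in log2(RPM + 1) for 6 members and for H2-Bl and Gm10499, with SE; grey bars span the values with each library left out in turn and the dashed line is the median of all transcripts tested, 0.12. H2-T23 and H2-T24 lie at 1.71 and 1.799, H2-D1, Tapbp and H2-T22 between 0.50 and 0.82, and H2-K1 at -0.34.

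Levels were also set per kb of annotated exons, for the rows that hold 1 class I gene. In the WT, H2-T23 was at 21.6 RPM per kb, H2-T24 at 6.47, H2-K1 at 3.09 and H2-T22 at 2.07. In the cKO, H2-T23 was at 72.7 RPM per kb, H2-T24 at 20.9, H2-T22 at 3.02 and H2-K1 at 2.33. H2-T23 was first in either genotype. The H2-T24 row came next, with reads whose strand is not known, so the place of H2-T24 is uncertain. The order of the low pair differed between genotypes, and H2-K1 and H2-T22 cannot be ranked, given the mapping limit on H2-T22.

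The neighbourhood of H2-T23 was then examined, by a choice made after the values were seen. From the H2-T24 row to the Gm10499 row, over 141 kb, 9 rows lay at least in part, all tested and 7 of them on the minus strand. In addition to H2-T23 and H2-T24, the minus strand rows of H2-Bl and Gm10499 met the threshold in the direction of higher levels. H2-Bl (chromosome 17, 36080115 to 36081987), a class I gene named for the blastocyst and listed by RefSeq as a transcribed pseudogene, was at 93.0, 64.1, 70.7 and 121 RPM in cKO replicates 1 to 4. In WT replicates 1 to 3 H2-Bl was at 22.8, 18.0 and 29.8 RPM. Gm10499 (36141758 to 36145923), which RefSeq lists as protein-coding, was at 121, 86.0, 102 and 168 RPM in the cKO and at 25.7, 23.2 and 39.0 RPM in the WT. Like H2-T23, both were lowest in replicate 2 and highest in replicate 4 of the cKO. This order was not particular to the stretch. Tapbpl on chromosome 6, and Rps18 and Csnk2b elsewhere in the MHC region, had it too.

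The plus strand row that shares its reads with H2-T24 also met the threshold, with a log2 difference of 1.804 (SE 0.37). The remaining rows of the stretch had smaller or negative differences. A930015D03Rik, a long non-coding RNA gene on the plus strand, had means of 49.6 RPM in the cKO and 59.4 RPM in the WT, and its log2 difference was -0.25 (SE 0.21). Gm7030, which overlaps it on the minus strand and may share its reads, had a log2 difference of -0.24. Gm11127, a class I gene that shares sequence with H2-T23, held 2, 5, 8 and 2 reads in the cKO and 27, 29 and 23 reads in the WT. Its log2 difference was -1.22 (SE 0.27), but it passed the filter through the WT libraries alone, so a lower value was the only one it could give and its call is not counted. The H2-T22 difference of 0.50 lay between these values and those of H2-T23.

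**Figure D3:**
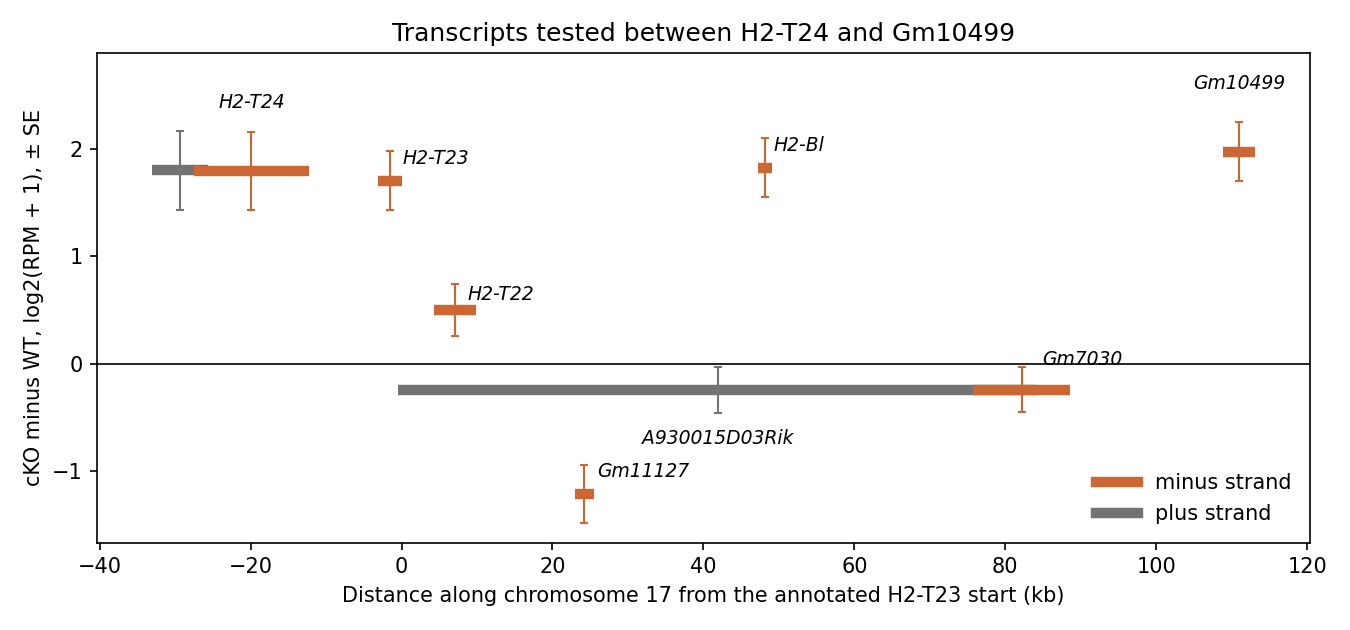
Rows tested between H2-T24 and Gm10499, drawn by distance in kb from the annotated H2-T23 start and by the difference between Setd1b cKO and WT in log2(RPM + 1), with SE; orange rows lie on the minus strand and grey rows on the plus strand. H2-T24, H2-T23, H2-Bl and Gm10499 lie near 1.71 to 1.98, H2-T22 at 0.50, A930015D03Rik at -0.25 and Gm11127 at -1.22, and the grey row beside H2-T24 shares its reads.

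The wider class I pathway was followed in lists that leave the members out. Over the lists of class I and class I-like genes, processing, regulators, interferon-stimulated and class II genes, 4 of 64 genes tested were higher and 1 was lower, where 3.76% and 1.95% of all transcripts tested were. Of 9 other class I and class I-like genes tested, 1 was higher, H2-Bl, with a log2 difference of 1.83 (SE 0.27, limma adjusted p = 0.00551). The median over the 9 genes was 0.00, against 0.12 over all transcripts tested. Hfe, the class I-like regulator of iron uptake, was the most abundant of the rest in the cKO and differed by 0.38 (SE 0.20, limma adjusted p = 0.303). The ligand genes of the NKG2D receptor, Raet1d, Raet1e, H60c and Ulbp1, differed by -0.27, 0.00, -0.56 and 0.33 on the log2 scale and did not pass.

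Of 18 other genes of peptide processing and loading, 1 was higher and none was lower. It was Tapbpl, the peptide editor related to tapasin, at 136, 105, 154 and 242 RPM in cKO replicates 1 to 4 and at 77.8, 59.1 and 55.1 RPM in WT replicates 1 to 3. Its groups did not overlap, and its log2 difference was 1.25 (SE 0.28, limma adjusted p = 0.0287). It did not pass with no filter, after centring on the median gene or with median-of-ratios scaling, nor without cKO replicate 1 or 3 or any single WT library, with limma adjusted p values of 0.0130 to 0.138 over 19 alternatives. The chaperones Canx and Calr, which fold new heavy chains, differed by -0.15 and -0.56. Psmf1 and Sec61g, a proteasome inhibitor and a part of the membrane channel for new proteins, differed by -0.13 and -0.14, and none of these 4 passed. The list median was -0.06.

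Of 21 genes tested that regulate class I genes, 1 was higher. Relb, a subunit of NF-kappaB, was at 5.64, 4.12, 4.18 and 14.7 RPM in the cKO and at 1.46, 0.617 and 1.403 RPM in the WT, a log2 difference of 1.77 (SE 0.41, limma adjusted p = 0.0315). It cleared the filter on low values only with cKO libraries, as WT replicate 2 was at 0.617 RPM. It did not pass the threshold in 10 of 19 alternatives (limma adjusted p 0.0206 to 0.161). The activator Irf1 differed by -0.54, the CCAAT factor subunit Nfyc by -0.55, and the kinases Jak1 and Jak2 by 0.28 and -0.17, none of them past the threshold. The row of Nlrc5, the transactivator known for classical class I genes, had 0 reads in every library. This row (chromosome 8, 94521019 to 94526726) may cover only part of the gene, so the level of the whole gene is not known. The list median was -0.06.

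Of 13 interferon-stimulated genes tested, 1 was higher and 1 was lower, with a median log2 difference of 0.20. Xaf1, a gene of cell death induced by interferon, was at 59.4, 45.3, 45.1 and 90.3 RPM in the cKO and at 8.18, 9.25 and 29.0 RPM in the WT (log2 difference 2.05, SE 0.41, limma adjusted p = 0.0174). Ifit1, which binds foreign RNA, was lower: 10.59, 8.65, 7.58 and 7.34 RPM in the cKO against 23.7, 20.2 and 16.7 RPM in the WT (log2 difference -1.15, SE 0.25, limma adjusted p = 0.0224). Each lost its call without WT replicate 1 or 2. Xaf1 also lost it without cKO replicate 1 and with no filter on low values. Ifit1 also lost it without cKO replicate 3 and at a pseudocount of 5 RPM, where its log2 difference was -0.89, under 2-fold. Over 19 alternatives the limma adjusted p of Xaf1 ran from 0.00431 to 0.137 and that of Ifit1 from 0.0140 to 0.111. Samhd1, Gbp7 and Ddx58 differed by -0.09, -0.54 and -0.11 and did not pass. Of the rest, Mx1, Parp9, Dtx3l, Oasl1, Bst2, Ifi27 and Sp100 differed by 0.98, 0.95, 0.86, 0.51, 0.47, 0.20 and 0.19. Cmpk2 differed by -0.74, and none of these passed.

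**Figure D4:**
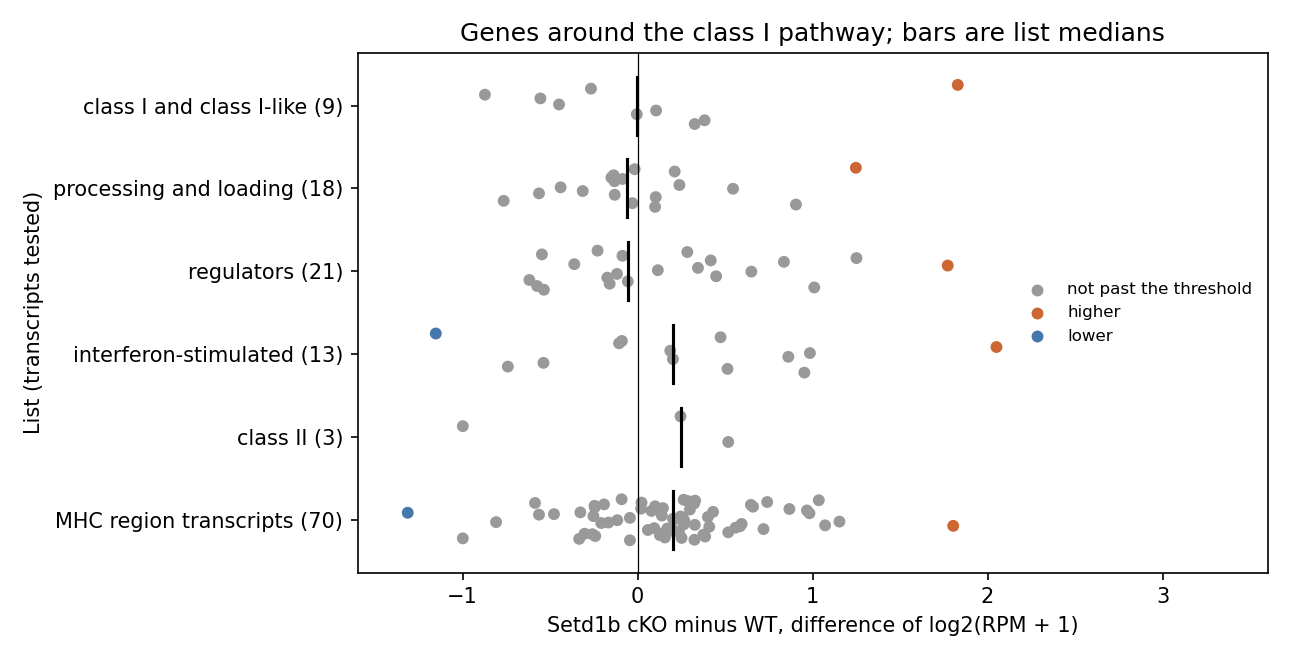
Difference between Setd1b cKO and WT in log2(RPM + 1) for each gene tested of 5 lists and of the transcripts between Tapbp and H2-T22, members left out; orange and blue points passed the threshold, and black bars are list medians. At most 1 point per row is orange, and medians lie between -0.06 and 0.25.

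None of 3 class II genes tested passed at the threshold. H2-Oa, which encodes a chain of the class II modulator H2-O, had a log2 difference of -0.999 (SE 0.34, limma adjusted p = 0.111), H2-Aa one of 0.25 and H2-DMb2 one of 0.52. H2-DMb2 passed the filter on low values through the cKO libraries alone, so a higher value was the only one it could give. In the MHC region itself, the 2.13 Mb between the Tapbp and H2-T22 rows, 70 other transcripts were tested, of which 1 was higher and 1 was lower, with a median of 0.20. The higher one is the plus strand row that shares its reads with H2-T24. The lower one is BC051537, a non-coding RNA gene whose minus strand row (34083838 to 34095849) overlaps the plus strand row of H2-Oa (34092340 to 34096507). The library kit does not mark strand, so these rows may share reads. BC051537 was at 9.996, 10.62, 4.70 and 8.97 RPM in the cKO and at 21.8, 19.3 and 25.1 RPM in the WT (log2 difference -1.31, SE 0.29, limma adjusted p = 0.0267). It did not pass with no filter on low values, without cKO replicate 1 or 3, or without any single WT library, and over 19 alternatives its limma adjusted p ran from 0.0204 to 0.102.

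Markers of other cells were read beside these values. Of 18 leukocyte markers 8 had a row, and Ptprc was among those without one. Lyz2, Tyrobp and Coro1a had 0 reads in every library, while Cd4, Csf1r, Itgam and Laptm5 had reads in every library. The markers with a row summed to 6.70 to 17.8 RPM in the cKO and to 5.94 to 8.23 RPM in the WT. Of 2 tested 1 was higher, the lysosomal gene Cd68 (log2 difference 1.36, SE 0.35, limma adjusted p = 0.0435, lost in 12 of 19 alternatives, where the limma adjusted p ran up to 0.167). Granulosa cell markers, all 18 in the table, summed to 123 to 290 RPM in the cKO and to 93.7 to 279 RPM in the WT. Of 8 tested none passed, with a median log2 difference of 0.27. Serpine2 and Kitl were at -0.44 and -0.08 on the log2 scale. Inha, Gja1, Nr5a2, Fshr, Cyp19a1 and Krt8 were at 1.70, 0.67, 0.44, 0.33, 0.22 and 0.06. Inha was higher without cKO replicate 4, at a log2 difference of 2.40 (limma adjusted p = 0.0178), and with a replicate block. Over 19 alternatives the limma adjusted p of Inha ran from 0.0139 to 0.535. Foxl2, Amh and Krt18 had at most 3 reads in any library. Markers of endothelium, theca and stroma, 14 of 16 in the table, summed to 24.5 to 35.8 RPM and 22.6 to 33.2 RPM, and 1 of 4 tested was higher, Dcn (log2 difference 1.45, SE 0.32, limma adjusted p = 0.0248). Dcn cleared the filter on low values only with cKO libraries, as WT replicate 1 was at 0.891 RPM. It did not pass the threshold in 7 of 19 alternatives, where the limma adjusted p ran up to 0.111. Oocyte markers summed to 22267 to 24641 RPM in the cKO and to 26711 to 29278 RPM in the WT, without overlap, and 1 of 12 tested was lower, Mos (log2 difference -1.34, SE 0.20, limma adjusted p = 0.00581). The part of these differences in the class I values was not tested.

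Finally, the transcripts whose profile over the 7 libraries was most like that of the members were identified. The measure was the root mean square difference between centred log2(RPM + 1) values and the mean centred profile of the 6 members. The nearest was Dtnb, a dystrobrevin gene, at 0.10, followed by Gm38560 (0.14), Klhl32 (0.14), the potassium channel gene Kcnk1 (0.15) and the keratin gene Krt10 (0.15). Dtnb was at 93.5, 67.7, 79.4 and 89.8 RPM in the cKO and at 42.8, 34.0 and 52.7 RPM in the WT. None of the 5 met the threshold of a change over 2-fold. The members themselves lay 0.21 (H2-D1) to 0.62 (H2-K1) from their mean profile, and the 5 genes were picked for their nearness to it, so the distances of the genes and of the members are not compared.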

How the data were processed

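Single GV oocytes were measured in 4 Setd1b cKO and 3 Setd1b WT libraries. The authors made cDNA (SMARTer Ultra Low kit, which does not mark strand), trimmed and mapped single reads with Hisat to GRCm38, removed hits of low mapping quality, and counted reads in SeqMonk over oocyte transcripts with isoforms merged. Strand use in counting is not given in the sources used here. The submitters' processing notes also name bcl2fastq 1.8.4 and featureCounts 1.4.4. In the deposited table each value is a log2 RPM relative to all mapped reads, and 0.9 read stands for 0. Whole reads were recovered for 100% of the values (tolerance 0.1 read).

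Members were found by the table's gene name on the same strand (3 genes) or, as the table names other genes there, by the overlap of a row with the gene in GENCODE M21 on its own strand (5 genes, at least 0.5 of the union). Each of these genes had 1 row. The promoters of 3 members are not reported here. Members, lists and rules were chosen with earlier results of these data known.

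Values were transformed to log2(RPM + 1), with 0 RPM for 0 reads, and fitted with limma 3.58.1 (lmFit, eBayes with trend, two-sided, no covariates) in R 4.3.3 over 18179 transcripts. A gene was called when it changed more than 2-fold with an adjusted p (Benjamini-Hochberg) under 0.05. The fit was tested on simulated data. Named genes were every member, up to 6 called and the 4 most abundant genes of each list, called genes of the MHC region and the 5 most alike transcripts. Other named genes were chosen after their values were seen. Python 3.11.15 was used elsewhere. Alternatives were other pseudocounts, filters and scalings, voom, a replicate block and each library left out. Scaling by reads within transcripts and by the median of ratios was added after seeing the data.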

Additional observations from a re-analysis of the deposited data

Results flagged for a closer look

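Among 47 genes examined in the 4 Setd1b cKO libraries, 2 had a library apart from the others by Dixon's criterion, which chance meets in about 1 in 20 groups. Tap2 was at 1.29 RPM (13 reads) in cKO replicate 1 and at 0 in the other cKO libraries. Relb was at 14.7 RPM in cKO replicate 4 against 4.12 to 5.64 RPM in the others, and without that library its log2 difference was 1.401.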

How the results depend on the processing

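The median log2 difference of the members stayed between 0.39 and 1.02 over all alternatives, and was 0.61 to 0.90 with each library left out. Every tested member kept its direction in each alternative. With no filter on low values H2-T23 and H2-T24 kept their log2 differences of 1.71 and 1.799 but did not pass among 33437 transcripts. H2-D1 moved by more than its spread only at a pseudocount of 5 RPM, to 0.44.

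Counts over all transcripts moved more. Against 683 higher and 355 lower, a pseudocount of 5 RPM gave 315 higher, no filter 174 higher and 129 lower, quantile normalisation 428 higher and voom 443 higher. Leaving out 1 library gave 171 to 850 higher and 109 to 437 lower. Centring on the median gene gave 458 higher and 531 lower, quantile normalisation 428 and 442, and median-of-ratios scaling 511 and 489, so the share of higher calls depends on the scaling. The pathway lists together with the granulosa, leukocyte and stroma markers, oocyte markers left out, held 6 higher and 1 lower of 78 genes tested, which became 3 and 0 at a pseudocount of 5 RPM. Higher genes were 1 with no filter, 3 after centring and 3 after quantile normalisation, and leaving out 1 library gave 1 to 6 higher and 0 to 1 lower. The cause was not tested, except that no filter tests more transcripts. H2-Bl passed in all 19 alternatives (limma adjusted p 0.00285 to 0.0498), as did Gm10499 and Mos.

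Replicate numbers did not pair the samples: deviations of same-numbered libraries correlated at 0.19, 0.29 and -0.13. With a replicate block, 924 transcripts were higher and 479 lower, the members' median log2 difference was 0.87, and these lists held 6 higher genes and 1 lower. The block drops cKO replicate 4, which has no WT partner. Depth limits Tap1 and Tap2.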

Other observations

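Class I genes below the filter on low values had few reads in either genotype. H2-Q4 held 8, 8, 4 and 9 reads in Setd1b cKO replicates 1 to 4 and 0, 3 and 3 reads in WT replicates 1 to 3. H2-M10.4, of a family first known from sensory neurons of the vomeronasal organ, held 9, 17, 25 and 3 reads in the cKO and 0, 2 and 6 reads in the WT. Fcgrt, the class I-like receptor that carries antibodies, held 5, 0, 0 and 11 reads in the cKO and 0 reads in each WT library. H2-T3 held 2, 2, 5 and 0 reads in the cKO and 0 reads in each WT library. Cd1d2, related to Cd1d1, leaned the other way, with 10, 9, 5 and 0 reads in the cKO and 18, 14 and 5 reads in the WT. These genes were not tested.

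Cd1d1, the class I-like gene that presents lipids, went the other way from H2-T23. It was at 6.73, 6.75, 6.53 and 3.26 RPM in the cKO and at 15.1, 14.2 and 6.27 RPM in the WT. The groups overlapped through WT replicate 3, and its log2 difference of -0.87 (SE 0.36) was not past the threshold.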
